A study of Mus musculus with 9 samples.

Results

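The 10 genes described here carry or restrain cytokine signals that end in the transcription factor STAT3. They are the receptor chains Il6ra, Il6st and Lifr, the kinases Jak1 and Jak2, the factor Stat3 and the inhibitors Socs1, Socs2, Socs3 and Cish. They were chosen by gene symbol, and all 10 had a row in the table of 21944 genes. All 10 also reached 1 FPKM (fragments per kilobase of transcript, scaled to library size) in at least 3 libraries, the filter that 12854 genes passed for testing. Cish reached it in 6 libraries, all 3 metastases among them, Il6ra in 7, Socs1 in 8 and the other members in 9.

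RNA was sequenced from 9 tumour samples of NSG mice, strain NOD.Cg-PrkdcscidIl2rgtm1Wjl/SzJ, in 3 groups of 3. Metastases 1, 2 and 3 were liver metastases of the N134-RHAMMB line, N134-RHAMMB tumours 1, 2 and 4 were subcutaneous tumours of that line, and N134 tumours 1, 2 and 3 were subcutaneous tumours of the N134 line. N134 is a mouse pancreatic neuroendocrine tumour line, and RHAMMB is one form of RHAMM, a protein that binds hyaluronan. Cells were given by tail vein for metastases and subcutaneously for the tumours, so the site of growth and the route of injection cannot be told apart. All 3 groups share the host. NSG mice have no mature lymphocytes or natural killer cells, and their Il2rg allele removes a receptor chain shared by several cytokines, but they keep macrophages, neutrophils and stromal cells. The labels give no age or sex of the mice, do not say whether the lines are clones, and do not state that each replicate is its own animal, so a p-value reflects the spread among these samples alone, part of which may be technical.

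As background, cytokines of the interleukin-6 family bind a private chain, such as the interleukin-6 receptor that Il6ra encodes, and signal through the shared chain gp130, the product of Il6st. Leukaemia inhibitory factor uses the chain encoded by Lifr together with gp130. The chains activate JAK kinases, which phosphorylate STAT3, and STAT3 then enters the nucleus and drives genes that include Socs3, whose protein blocks gp130 and the kinases. Cish and Socs2 belong to the same inhibitor family and are best known as targets of STAT5 downstream of growth hormone and prolactin, while Socs1 is known for restraining interferon signals. STAT3 is controlled mainly by phosphorylation, which RNA levels do not show. In liver the pathway drives the acute phase response of hepatocytes.

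The letters TTCNNNGAA, the palindrome to which STAT dimers bind, were searched in windows of 300 bases (250 before and 50 after the annotated start) from RefSeq on GRCm38.p6, the build of the table. Of the 9 members with a window, 2 held the letters, Cish and Socs3, and 7 did not; Socs2 has no window in the table used. Of all 27025 genes with a window 9.55% held the letters in any window, and of all 32851 windows 8.3% did. Both windows are shown because they hold the letters, and capitals mark the matches. The Cish window is chr9:107296409-107296708, plus strand, and its matches begin at the start base and 11 bases after it. The first of them also fits the stricter letters TTCCNGGAA, which overlap the first motif by construction and stood in 1.15% of all windows. The Socs3 window is chr11:117969317-117969616, minus strand, and its match begins 154 bases before the start. The same palindrome with a spacer longer by 1 base stood in no member's window and in 6.95% of all windows. A match is a description of these letters and not a measured binding site.
Cish: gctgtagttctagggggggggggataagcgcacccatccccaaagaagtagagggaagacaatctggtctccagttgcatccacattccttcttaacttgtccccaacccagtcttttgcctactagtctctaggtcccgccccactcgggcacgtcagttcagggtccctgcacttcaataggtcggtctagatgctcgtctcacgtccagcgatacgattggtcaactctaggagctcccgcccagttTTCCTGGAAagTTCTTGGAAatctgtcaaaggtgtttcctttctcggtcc
Socs3: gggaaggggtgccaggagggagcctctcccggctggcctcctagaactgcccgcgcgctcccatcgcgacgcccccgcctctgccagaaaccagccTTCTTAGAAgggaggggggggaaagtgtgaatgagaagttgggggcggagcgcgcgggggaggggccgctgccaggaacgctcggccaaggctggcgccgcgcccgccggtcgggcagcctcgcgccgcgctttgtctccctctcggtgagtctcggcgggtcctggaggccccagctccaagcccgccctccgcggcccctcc

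Before the results, the libraries differed in ways that touch them. Estimated depth was 14.6 to 18.1 M fragments, at which a single fragment on a 2 kb transcript gives 0.0276 to 0.0342 FPKM. Beta cell markers, which check the labelled tumour type, summed to 42495 to 47851 FPKM in metastases, 31175 to 36990 FPKM in the N134-RHAMMB tumours and 37538 to 41431 FPKM in the N134 tumours. Hepatocyte markers, 10 genes, summed to 3784 to 4079 FPKM in metastases, 290 to 398 FPKM in the N134-RHAMMB tumours and 340 to 430 FPKM in the N134 tumours. All 10 reached 1 FPKM in metastases, against 4 in each subcutaneous group, where Ttr, which islet cells also make, was most of the sum. Alb, which encodes albumin, stood at 1504, 1410 and 1609 FPKM in metastases, at 0.685, 0.720 and 0.481 FPKM in the N134-RHAMMB tumours, and 1.60, 1.14 and 1.25 FPKM in the N134 tumours. Lymphocyte markers reached 1 FPKM in no library, with Cd3d listed at 0 in all 9. Skeletal muscle markers summed to 154 and 190 FPKM in the N134-RHAMMB tumours 2 and 4 and to 19.2 FPKM or less elsewhere. In bulk tissue, fewer cells of a type and less RNA per cell cannot be told apart.

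Stat3 and the gp130 chain were the most abundant members, and the receptor that binds interleukin-6 itself was among the lowest. Per length, group means ran from 48.7 FPKM for Stat3 to 1.04 FPKM for Socs1 in metastases, from 51.8 FPKM for Stat3 to 0.603 FPKM for Cish in N134-RHAMMB tumours and from 57.9 FPKM for Stat3 to 1.18 FPKM for Cish in N134 tumours. In every group the order of the 4 highest means was Stat3, Il6st, Jak1 and Socs3, with the values of some neighbours overlapping. In metastases Stat3 overlapped Il6st, and the neighbours in the order Socs3, Lifr, Socs2 and Jak2 overlapped, as did Cish and Il6ra. In both subcutaneous groups Il6st overlapped Jak1, and Lifr overlapped Socs2. Il6ra overlapped Socs1 in all 3 groups.

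**Figure D1:**
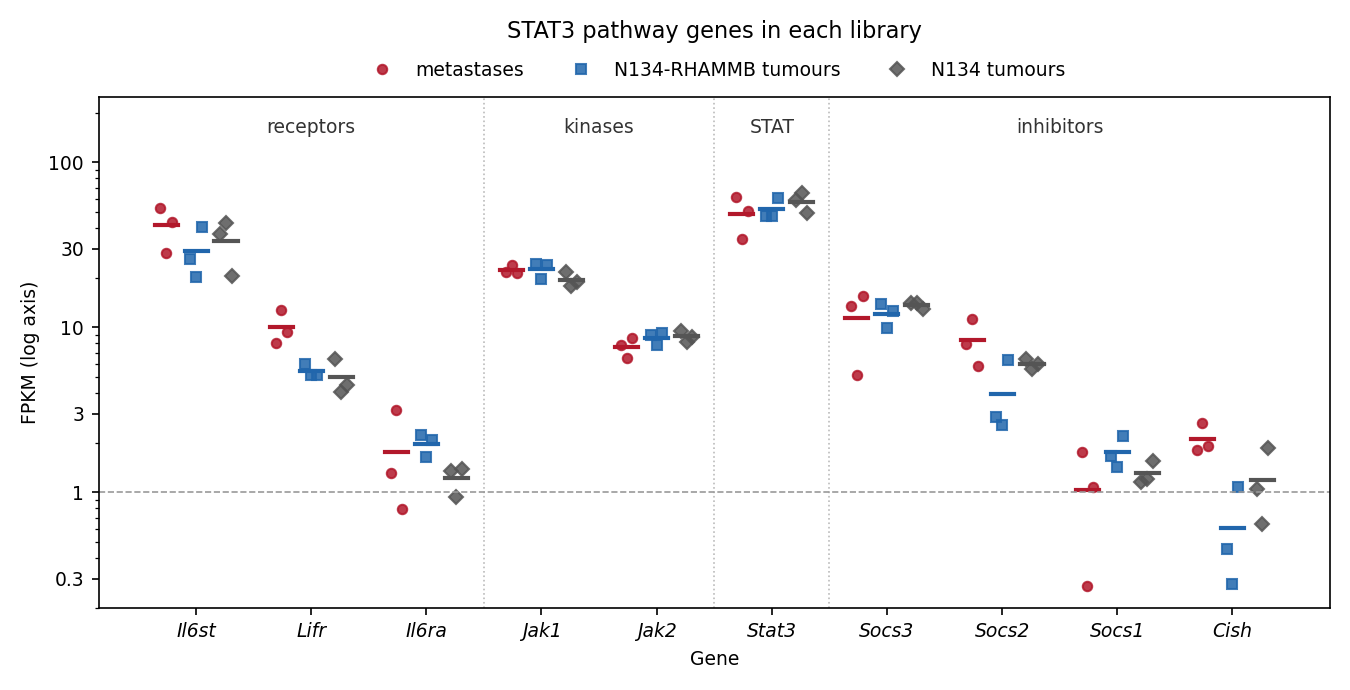
FPKM (log axis) of the 10 genes in each library, with metastases as red circles, N134-RHAMMB tumours as blue squares and N134 tumours as grey diamonds; short bars are means of 3 libraries and the dashed line is 1 FPKM. Most groups overlap, while Lifr lies at 8.0 to 12.8 FPKM in metastases, above all 6 subcutaneous tumours, and Cish lies at 1.8 to 2.64 FPKM in metastases, above the N134-RHAMMB tumours.

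The comparison of metastases with N134-RHAMMB tumours keeps the cell line and changes the site. Cish rose, and it was the 1 member of 10 that passed at an adjusted p below 0.05 (limma over all genes), with none lower. Over all tested genes 6.56% passed in this comparison, 5.04% as higher and 1.52% as lower. Of the 843 genes that passed 648 were higher, and with quantile normalization 630 of 944 were. In 3 of 10 members the unadjusted p was under 0.05, against 16.7% of all genes. In 2 of 10 members every metastasis lay above every N134-RHAMMB tumour, against 8.8% of all genes. The median log2 difference of the members was -0.06, the same as that of all tested genes.

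The comparison of metastases with N134 tumours changes both line and site and shares its metastases with the first. Lifr rose, the 1 member of 10 that passed, with none lower, against 9.93% of all genes passing and 5.69% as higher and 4.23% as lower. Lifr was also the only member with an unadjusted p under 0.05, against 21.4% of all genes, and the only one whose groups did not overlap, against 11.4% of all genes in that direction. The median of the members was 0.21, and that of all tested genes was -0.03.

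Setting N134-RHAMMB beside N134 tumours asks how the RHAMMB line differs under the skin. In limma 0 of 10 members passed, and an unadjusted p under 0.05 was found for 0 of 10, against 0.194% of all genes passing (0.0778% as higher, 0.117% as lower) and 12.8% at an unadjusted p under 0.05. With library weights, which lower the say of libraries far from their group, 4 of 10 passed, namely Jak1, Il6ra, Socs2 and Cish, while 2629 of all genes passed in that fit. In 1 of 10 members, Il6ra, every N134-RHAMMB tumour lay above every N134 tumour, against 14.0% of all genes in that direction. The median of the members was -0.09, and that of all tested genes was 0.01.

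**Figure D2:**
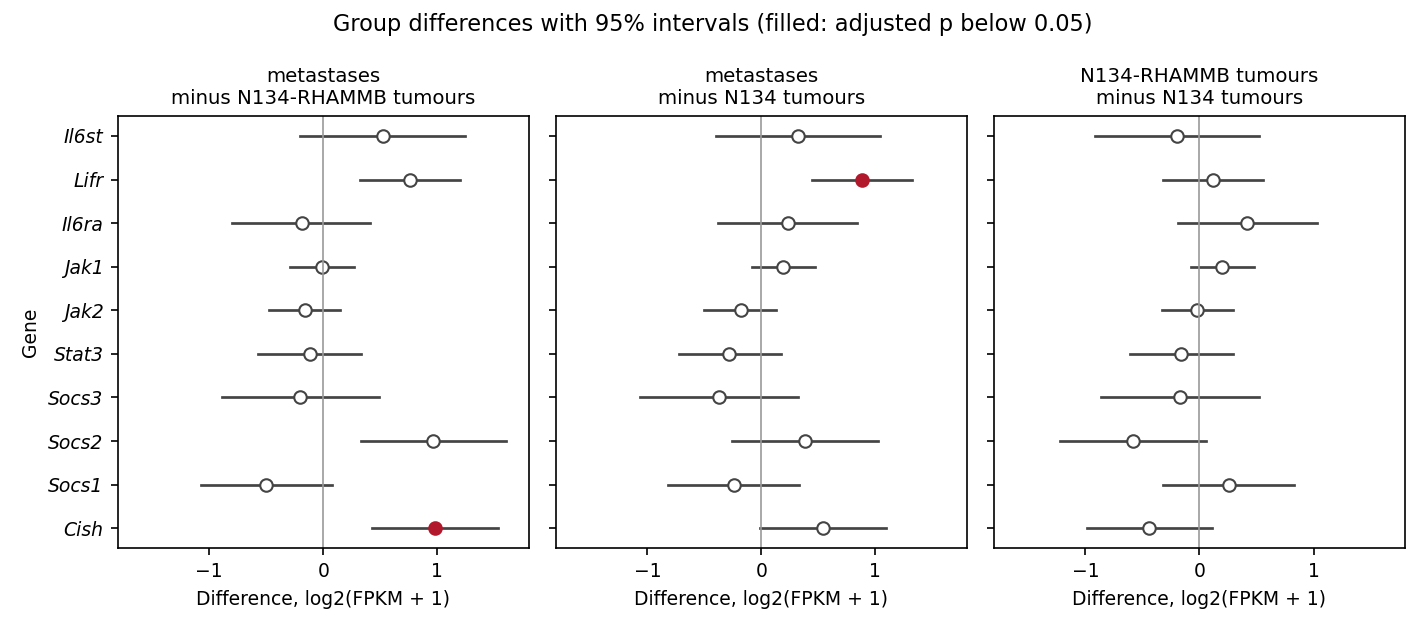
Differences in log2(FPKM + 1) between groups from limma, with 95% intervals as bars, for each of the 10 genes in the 3 comparisons; filled points had an adjusted p below 0.05. Only Cish in metastases against N134-RHAMMB tumours (0.98) and Lifr in metastases against N134 tumours (0.88) are filled.

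Among the receptors, Lifr (ENSMUSG00000054263, chromosome 15, 7129559 to 7197489) had the clearest group pattern. Its levels were 8.0, 12.8 and 9.38 FPKM in metastases 1, 2 and 3, 6.02, 5.13 and 5.18 FPKM in the N134-RHAMMB tumours 1, 2 and 4, and 6.41, 4.08 and 4.48 FPKM in the N134 tumours 1, 2 and 3. All 3 metastases lay above all 6 subcutaneous tumours, which overlapped each other. Means were 10 ± 2.45 FPKM in metastases, 5.44 ± 0.504 FPKM in the N134-RHAMMB tumours and 4.99 ± 1.25 FPKM in the N134 tumours (SD, n = 3 each). Against N134 tumours the mean was 2.01 times as high (0.88 on the log2(FPKM + 1) scale, SE 0.20, limma adjusted p = 0.0179). Against N134-RHAMMB tumours it was 1.85 times as high (0.76, SE 0.20), with a limma adjusted p = 0.0505 that misses the threshold. The N134-RHAMMB tumours differed from the N134 tumours by 0.12 (95% interval -0.32 to 0.56, limma adjusted p = 0.858). The call against N134 tumours was lost without N134 tumour 2 (limma adjusted p = 0.0806) or N134 tumour 3 (adjusted p = 0.0711) and with the replicate block (0.88, adjusted p = 0.0626), and the log2 difference ranged from 0.71 to 1.04 with each library left out. Against N134-RHAMMB tumours Lifr passed without metastasis 1 (limma adjusted p = 0.0404), without N134 tumour 1 (adjusted p = 0.0416) and with median-of-ratios scaling (adjusted p = 0.0296). Hepatocytes are known to express Lifr, and their markers, summed above, were higher in the same 3 libraries. So were the sums of cholangiocyte markers (94.9 to 142 FPKM in metastases, against 29.4 to 47.8 FPKM in the subcutaneous tumours). Spp1 made most of this sum in metastases (75.6, 69.2 and 91.3 FPKM), while Krt7, Krt19, Epcam and Cftr overlapped and Sox9 stayed under 1 FPKM. Liver sinusoidal endothelial markers also summed higher (39.6 to 60.0 against 23.4 to 33.5 FPKM), though Lyve1 and Fcgr2b overlapped. Kupffer cell markers summed higher too (20 to 30.1 against 1.88 to 16.7 FPKM), and C6 made most of that sum in metastases (15.6, 18.6 and 17.1 FPKM). Of the others, Clec4f was higher and Vsig4, Timd4 and Cd5l overlapped. Marco was lower in metastases (0.211 to 0.349 against 0.688 to 8.82 FPKM). Adipocyte sums (13.7 to 19.5 against 31.1 to 94.1 FPKM) and erythroid sums (282 to 382 against 396 to 1947 FPKM) were lower there. Beta cell sums were higher in metastases (42495 to 47851 against 31175 to 41431 FPKM), with Ins2 as most of the sum. In that list Ins2 and Mafa were higher, Chgb was lower and the rest overlapped. The part of these cells in the difference was not tested.

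Il6st (ENSMUSG00000021756, chromosome 13, 112464070 to 112510086), the shared signalling chain, varied between libraries of every group. Its levels were 52.8, 28.1 and 43.7 FPKM in metastases, 26.1, 20.1 and 40.7 FPKM in the N134-RHAMMB tumours, and 37.0, 42.6 and 20.6 FPKM in the N134 tumours. The groups overlapped in all 3 comparisons, and the coefficient of variation within a group was 30% to 36.6%. Metastases differed from N134-RHAMMB tumours by 0.52 on the log2 scale (95% interval -0.20 to 1.24, limma adjusted p = 0.497) and from N134 tumours by 0.32 (-0.40 to 1.04, adjusted p = 0.645). The difference between N134-RHAMMB and N134 tumours was -0.20 (-0.92 to 0.52, limma adjusted p = 0.860). Intervals this wide leave changes of more than 1 log2 unit within the range for metastases.

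Il6ra (ENSMUSG00000027947, chromosome 3, 89864059 to 89913196), the chain that binds interleukin-6, was low throughout. Its levels were 1.32, 3.18 and 0.799 FPKM in metastases, 2.22, 1.63 and 2.08 FPKM in the N134-RHAMMB tumours, and 1.35, 0.944 and 1.38 FPKM in the N134 tumours. Metastasis 2 was the highest of the 9 libraries and metastasis 3 the lowest, so metastases spanned both subcutaneous groups. N134-RHAMMB tumours did not overlap N134 tumours, with means of 1.98 ± 0.307 and 1.23 ± 0.245 FPKM (SD, n = 3 each). That difference was 0.42 on the log2 scale (SE 0.27, 95% interval -0.19 to 1.03), and its limma adjusted p = 0.563 did not pass. In metastases the mean was 1.77 ± 1.25 FPKM. Its differences were -0.19 from N134-RHAMMB tumours (limma adjusted p = 0.821) and 0.23 from N134 tumours (adjusted p = 0.715). The first turned to 0.07 without metastasis 3, and the second to -0.12 without metastasis 2.

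Both kinases varied little. Jak1 (ENSMUSG00000028530, chromosome 4, 101152367 to 101265282), which serves gp130 and interferon receptors, stood at 21.7, 23.9 and 21.3 FPKM in metastases, at 24.1, 19.7 and 23.7 FPKM in the N134-RHAMMB tumours, and 21.7, 17.7 and 18.8 FPKM in the N134 tumours. Its highest value over the 9 libraries was 1.36 times its lowest, and all groups overlapped. Jak2 (ENSMUSG00000024789, chromosome 19, 29251828 to 29313080), the kinase of growth hormone and prolactin receptors, stood at 7.85, 6.55 and 8.57 FPKM in metastases, at 9.04, 7.80 and 9.18 FPKM in the N134-RHAMMB tumours, and 9.51, 8.18 and 8.74 FPKM in the N134 tumours. Its ratio of highest to lowest was 1.45. Of all tested genes, 16.9% varied as little as or less than Jak1 over the 9 libraries, and 14.4% as little as or less than Jak2, by the SD of log2(FPKM + 1). The 95% intervals of the 6 differences of the kinases lay between -0.50 and 0.48 on the log2 scale, and their limma adjusted p ran from 0.436 to 0.981.

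Stat3 (ENSMUSG00000004040, chromosome 11, 100885098 to 100939540) stood at 61.2, 34.2 and 50.7 FPKM in metastases, at 47.4, 47.1 and 60.9 FPKM in the N134-RHAMMB tumours, and 59.2, 65.0 and 49.3 FPKM in the N134 tumours. Metastasis 2 was the lowest of the 9 libraries, and the groups overlapped in all 3 comparisons. Means were 48.7 ± 13.6 FPKM in metastases, 51.8 ± 7.88 FPKM in the N134-RHAMMB tumours and 57.9 ± 7.96 FPKM in the N134 tumours (SD, n = 3 each). The log2 difference of metastases was -0.12 from N134-RHAMMB tumours (95% interval -0.57 to 0.33, limma adjusted p = 0.864) and -0.28 from N134 tumours (-0.72 to 0.17, adjusted p = 0.498). The N134-RHAMMB tumours differed from the N134 tumours by -0.16 (-0.61 to 0.29, limma adjusted p = 0.802). Without metastasis 2 the first difference was 0.11. The last 72 bases of Stat3 overlap Stat5a on the other strand, and the strand setting of the libraries is not given in the sources used here.

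Of the inhibitors, Cish (ENSMUSG00000032578, chromosome 9, 107296026 to 107302784), whose window above holds a pair of STAT motif matches, stood at 1.8, 2.64 and 1.91 FPKM in metastases. Its levels were 0.457, 0.278 and 1.08 FPKM in the N134-RHAMMB tumours, and 1.05, 0.643 and 1.86 FPKM in the N134 tumours. All 3 metastases lay above all 3 N134-RHAMMB tumours, and N134 tumour 3 reached into the range of metastases. Metastases averaged 2.12 ± 0.457 FPKM, N134-RHAMMB tumours 0.603 ± 0.418 FPKM and N134 tumours 1.18 ± 0.619 FPKM (SD, n = 3 each). The mean in metastases was 3.51 times that in N134-RHAMMB tumours, a log2(FPKM + 1) difference of 0.98 (SE 0.25, limma adjusted p = 0.0411). It was 1.79 times that in N134 tumours (0.54, SE 0.25, limma adjusted p = 0.239). The N134-RHAMMB tumours differed from the N134 tumours by -0.44 (95% interval -0.99 to 0.11, limma adjusted p = 0.494).

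The Cish call was close to the threshold and was lost in 12 of 18 alternatives, with a limma adjusted p between 0.0150 and 0.206 over them. It was lost without any 1 of the metastases (adjusted p = 0.0681, 0.0803 and 0.0781 without metastasis 1, 2 and 3), N134-RHAMMB tumour 1 or 2 (adjusted p = 0.156 and 0.155) or N134 tumour 1 (adjusted p = 0.0733). With a pseudocount of 0.1, which shrinks low values less, the difference was 1.8 (limma adjusted p = 0.051). The locus overlaps the annotated antisense transcript Gm17041 and the pseudogene Gm17040 on the other strand, and without the strand setting reads of these cannot be told apart. Hepatocyte markers were higher in metastases and muscle markers in N134-RHAMMB tumours 2 and 4, and their part in the Cish difference was not tested. Without those 2 tumours the difference was 1.09 (limma adjusted p = 0.206).

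Socs2 (ENSMUSG00000020027, chromosome 10, 95385362 to 95417180), another inhibitor induced by growth hormone, had its lowest values in the same N134-RHAMMB tumours as Cish. Its levels were 7.95, 11.3 and 5.87 FPKM in metastases, 2.88, 2.57 and 6.37 FPKM in the N134-RHAMMB tumours 1, 2 and 4, and 6.40, 5.60 and 6.01 FPKM in the N134 tumours. N134-RHAMMB tumours 1 and 2 lay below all other libraries, while N134-RHAMMB tumour 4 lay within the range of N134 tumours. Metastases averaged 8.37 ± 2.73 FPKM, 2.12 times the 3.94 ± 2.11 FPKM of N134-RHAMMB tumours (0.96, SE 0.29), but the limma adjusted p = 0.0889 did not pass. Without N134-RHAMMB tumour 4 the difference was 1.29 (limma adjusted p = 0.00865). It was 0.75 without metastasis 2 (limma adjusted p = 0.158), 0.77 without N134-RHAMMB tumour 2 (adjusted p = 0.256) and 0.83 without N134-RHAMMB tumour 1 (adjusted p = 0.314). Against the 6.0 ± 0.401 FPKM of N134 tumours metastases differed by 0.38 (limma adjusted p = 0.511), and N134-RHAMMB tumours differed from them by -0.58 (95% interval -1.22 to 0.06, adjusted p = 0.432).

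Socs3 (ENSMUSG00000053113, chromosome 11, 117966079 to 117970047), the feedback inhibitor that STAT3 itself induces, stood at 13.4, 5.15 and 15.5 FPKM in metastases. The values were 13.9, 9.95 and 12.5 FPKM in the N134-RHAMMB tumours and 14.1, 14.0 and 12.9 FPKM in the N134 tumours. Apart from metastasis 2 and N134-RHAMMB tumour 2, all libraries lay between 12.5 and 15.5 FPKM. Metastases differed from N134-RHAMMB tumours by -0.20 on the log2 scale (95% interval -0.89 to 0.49, limma adjusted p = 0.845) and from N134 tumours by -0.37 (-1.06 to 0.32, adjusted p = 0.568). Both turned positive without metastasis 2, at 0.24 (limma adjusted p = 0.415) and 0.07 (adjusted p = 0.818). The N134-RHAMMB tumours differed from the N134 tumours by -0.17 (-0.86 to 0.52, limma adjusted p = 0.879).

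Socs1 (ENSMUSG00000038037, chromosome 16, 10783808 to 10785536), which inhibits JAK kinases, was the lowest member in metastases. Its levels were 1.75, 0.271 and 1.08 FPKM in metastases, 1.67, 1.42 and 2.19 FPKM in the N134-RHAMMB tumours, and 1.15, 1.21 and 1.55 FPKM in the N134 tumours. The groups overlapped in all 3 comparisons, with metastasis 2 below every other library. Its locus is short, so few fragments stand behind these values, at most 9 in metastasis 2 and 33 to 56 in the other libraries by the depth estimate. The log2 differences were -0.50 in metastases against N134-RHAMMB tumours (95% interval -1.07 to 0.08, limma adjusted p = 0.390), -0.24 in metastases against N134 tumours (adjusted p = 0.666) and 0.26 in N134-RHAMMB against N134 tumours (adjusted p = 0.733). Without metastasis 2 the first was -0.19 and the second 0.06, and without metastasis 1 they were -0.75 and -0.50.

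Metastasis 2 was the extreme library for most of the members. It was the lowest of 9 libraries for 4 members, Stat3, Jak2, Socs1 and Socs3, and the highest of 9 for 4 others, Il6ra, Lifr, Socs2 and Cish. Over all tested genes it was the lowest for 29.7% and the highest for 16.1%. Relative to the mean of metastases 1 and 3 its log2 values differed by -1.32 for Socs3, -0.91 for Socs1, -0.75 for Il6st and -0.69 for Stat3, and by 1.04 for Il6ra, 0.65 for Socs2, 0.51 for Lifr and 0.35 for Cish. Beside this, fibroblast markers summed to 195 FPKM in metastasis 2 against 432 and 361 FPKM in metastases 1 and 3, and pericyte and stellate markers to 130 FPKM against 205 and 192 FPKM. Col3a1 was most of the fibroblast sum (111 against 285 and 237 FPKM), and Col1a1, Col1a2, Lum and Fn1 were also lower. Pdgfra (2.61 against 2.55 and 1.93 FPKM) and Dcn (32.5 against 34.0 and 24.4 FPKM) were not below both others. In the pericyte and stellate list Reln was highest in metastasis 2 (31.5 against 15.0 and 9.43 FPKM). Lrat lay between the others, and the rest of that list was lower. Macrophage markers summed to 221 FPKM in metastasis 2 against 370 and 233 FPKM, and hepatocyte markers to 3784 FPKM against 3806 and 4079 FPKM. Beta cell markers summed to 47509 FPKM against 42495 and 47851 FPKM, but single genes of that list moved in both directions. Ins1 (824 against 2649 and 4947 FPKM), Slc2a2 (12.9 against 61.2 and 168 FPKM), Pdx1, Nkx6-1, Mafa and Chga were lower. Iapp (6492 against 3139 and 2049 FPKM) and G6pc2 (826 against 355 and 381 FPKM) were higher, and Ins2 and Chgb lay between. The part of these cells and genes in the pattern was not tested.

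**Figure D3:**
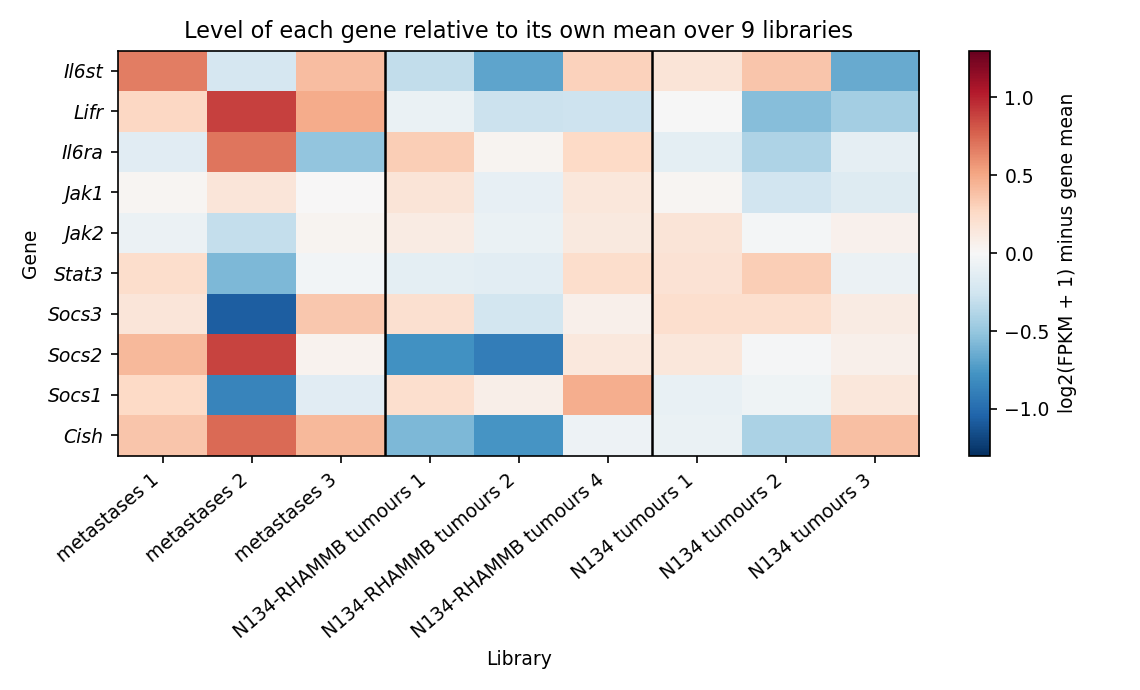
Level of each of the 10 genes in each library as log2(FPKM + 1) minus the gene's mean over 9 libraries, red above and blue below it; vertical lines part metastases, N134-RHAMMB tumours and N134 tumours. Metastasis 2 is lowest for Stat3, Jak2, Socs1 and Socs3 and highest for Il6ra, Lifr, Socs2 and Cish, and N134-RHAMMB tumours 1 and 2 are low for Socs2 and Cish.

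By the SD of log2(FPKM + 1) over the 9 libraries, Socs2 (0.55), Cish (0.51) and Il6st (0.49) varied the most. The genes most like each, by the root mean square difference of profiles after each gene's own mean was subtracted, were C1qtnf4 (0.18), Nlrc5 (0.24) and Serping1 (0.25) for Socs2. For Cish they were 9030617O03Rik (0.19), Epas1 (0.21) and Jam2 (0.21), and for Il6st they were Lipa (0.22), Myh14 (0.23) and Agap1 (0.23). The points of each profile are the same 9 libraries in 3 groups, so likeness of this kind follows any feature that the libraries share.

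Ligands of the pathway were scarce. Of 10 gp130 family ligands, 7 lay under the filter and none of these passed 1.41 FPKM (Il11, in metastasis 2). Il6 stood at 0, 0.106 and 0.140 FPKM in metastases, at 0.120, 0.391 and 0.130 FPKM in the N134-RHAMMB tumours, and 0.702, 0.442 and 0.325 FPKM in the N134 tumours, values of few fragments. Of the 3 tested ligands, which include Ctf1, cardiotrophin-1, and Cntf, ciliary neurotrophic factor, 0 passed in limma in any comparison. At an unadjusted p under 0.05 there was 1, Ctf1 in metastases against N134 tumours, where 21.4% of all genes were, and 0 in the other comparisons. Ctf1 averaged 1.27 ± 0.844 FPKM in metastases, 0.746 ± 0.727 FPKM in the N134-RHAMMB tumours and 0.103 ± 0.112 FPKM in the N134 tumours (limma adjusted p = 0.0907 for metastases against N134 tumours). Without metastasis 3, 1 of the 3 ligands passed in that comparison. Ctf1 reached 1 FPKM only in metastases 1 and 2 and N134-RHAMMB tumour 1, so it needed the metastases to pass the filter. Of 12 other cytokines, 11 lay under the filter and 5 were listed at 0 in all libraries, and Thpo, the tested one, did not pass (limma adjusted p = 0.308 to 0.890, with 0 at an unadjusted p under 0.05).

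Among 14 other tested receptors that feed STAT proteins, 1 rose and 0 fell in metastases against N134-RHAMMB tumours, against 5.04% and 1.52% of all genes. The median was -0.03, against -0.06 for all genes. The 1 that rose was the prolactin receptor Prlr, which signals through JAK2 and STAT5. Its levels were 6.84, 7.53 and 8.78 FPKM in metastases, 3.74, 4.46 and 3.40 FPKM in the N134-RHAMMB tumours and 3.49, 2.70 and 3.03 FPKM in the N134 tumours. All 3 metastases lay above all 6 subcutaneous tumours (0.84 and 1.10 on the log2 scale, limma adjusted p = 0.00676 against N134-RHAMMB tumours and adjusted p = 0.000924 against N134 tumours). Against N134 tumours 1 rose and 2 fell of 14, against 5.69% and 4.23% of all genes (median -0.04 against -0.03). Those that fell were the interleukin-10 receptor chain Il10ra (-0.73, limma adjusted p = 0.0388) and Ifngr1, an interferon gamma receptor chain named because it passed (-0.47, adjusted p = 0.0181). In N134-RHAMMB against N134 tumours 0 of 14 passed in limma and 2 had an unadjusted p under 0.05, against 0.194% and 12.8% of all genes. The largest differences there were those of Egfr, the epidermal growth factor receptor (0.48, limma adjusted p = 0.339), Ifngr1 (-0.47, adjusted p = 0.133) and Il10ra (-0.39, adjusted p = 0.429). Without N134-RHAMMB tumours 2 and 4 together, 0 of 14 passed in metastases against N134-RHAMMB tumours and 1 in metastases against N134 tumours, where 1 also passed without N134 tumour 1.

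Of 7 other tested JAK and STAT genes, 0 passed in limma in any comparison, against 6.56%, 9.93% and 0.194% of all genes in the order below. These 7 also had 0 at an unadjusted p under 0.05, against 16.7%, 21.4% and 12.8% of all genes. Their median log2 difference was 0.02 in metastases against N134-RHAMMB tumours, 0.12 in metastases against N134 tumours and 0.01 in N134-RHAMMB against N134 tumours, with all genes at -0.06, -0.03 and 0.01 in that order.

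Of 14 other inhibitors, which include the remaining SOCS genes, PIAS genes and phosphatases, 0 passed in metastases against N134-RHAMMB tumours or in N134-RHAMMB against N134 tumours (limma, with 2 at an unadjusted p under 0.05 in each). Of all genes 6.56% and 0.194% passed in these 2 comparisons, and 16.7% and 12.8% had an unadjusted p under 0.05. In the first, 1 of the 14 passed with a pseudocount of 0.1, with no filter or without N134-RHAMMB tumour 2, and 2 passed with library weights. In the second, 3 of the 14 passed with library weights. With those weights 1950 of all 12854 tested genes passed in the first comparison and 2629 in the second. The phosphatase genes Ptpn2 and Ptpn1, whose products dephosphorylate JAKs and STATs, had the largest differences in the first, at -0.41 (limma adjusted p = 0.0527) and -0.40 (adjusted p = 0.138). In metastases against N134 tumours, where 4.23% of all genes fell, 1 of 14 did. It was Ptprc, which encodes the leukocyte phosphatase CD45 (-0.81, 3.02 ± 0.153 against 6.13 ± 1.34 FPKM, limma adjusted p = 0.0109). That call was lost without N134 tumour 1 or N134 tumour 2. Macrophage markers summed to 221 to 370 FPKM in metastases, 343 to 460 FPKM in the N134-RHAMMB tumours and 472 to 807 FPKM in the N134 tumours, in the same order as Ptprc and Il10ra, and all 10 reached 1 FPKM in each group. Their part in these differences was not tested.

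Of 20 tested genes that STAT3 is known to activate in various cells, 0 rose and 2 fell in each comparison with metastases, Timp1, a metalloproteinase inhibitor, and Mmp2, a matrix metalloproteinase. Of all tested genes, 5.04% rose and 1.52% fell against N134-RHAMMB tumours, and 5.69% rose and 4.23% fell against N134 tumours. Timp1 stood at 4.02, 1.13 and 5.64 FPKM in metastases, 14.3, 10.9 and 13.3 FPKM in the N134-RHAMMB tumours and 39.4, 48.4 and 17.5 FPKM in the N134 tumours. Its log2 difference was -1.73 from N134-RHAMMB tumours (limma adjusted p = 0.0396) and -3.01 from N134 tumours (adjusted p = 0.000986). Mmp2 fell by 1.12 (limma adjusted p = 0.00488) and by 2.29 (adjusted p = 1.84e-05). The medians of the 20 genes were -0.08 and -0.29, with all genes at -0.06 and -0.03. An unadjusted limma p under 0.05 was found for 2 of 20 in the first and 7 of 20 in the second, against 16.7% and 21.4% of all genes. Between N134-RHAMMB and N134 tumours 0 of 20 passed in limma, 4 reached an unadjusted p under 0.05, against 12.8% of all genes, and the median was -0.25, against 0.01 for all genes. There 1 of 20 passed without metastasis 2, with median-of-ratios scaling, with quantile normalization or with only the 2 groups, and 5 passed with library weights. With library weights 2629 of all 12854 tested genes passed there. Fibroblast markers summed to 195 to 432 FPKM in metastases, 302 to 518 FPKM in the N134-RHAMMB tumours and 657 to 931 FPKM in the N134 tumours, with 7, 8 and 8 of 8 at 1 FPKM. Their part in the lower Timp1 and Mmp2 was not tested. Against N134-RHAMMB tumours 1 of the 20 passed without metastasis 1 or 2, N134-RHAMMB tumour 1, 2 or 4, or N134 tumour 1, with no filter, at a mean of 5 FPKM or with the replicate block, 3 passed without metastasis 3 or with library weights, and 0 passed without N134-RHAMMB tumours 2 and 4 together. Against N134 tumours 4 of the 20 passed with quantile normalization, and 3 with library weights, without metastasis 3 or without N134-RHAMMB tumour 2. With library weights 1950 of all 12854 tested genes passed against N134-RHAMMB tumours and 1631 against N134 tumours, where 1579 passed with quantile normalization.

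Liver genes downstream of STAT3 and of growth hormone were higher in metastases, beside the hepatocyte transcripts. Of 19 tested acute phase genes, 9 reached 1 FPKM in metastases alone and so passed the filter through the group where they are high; no count is drawn from these. Of the other 10 genes, Orm1, Fgl1 and Apcs reached 1 FPKM in fewer than 3 subcutaneous tumours. They too needed the metastases to pass the filter, and no count is drawn from them. The rest are named in full. Hp, Lrg1, Serpina3n and Steap4 rose against N134-RHAMMB tumours, where 5.04% of all genes did. Hp, Lrg1 and Steap4 rose against N134 tumours, where 5.69% did. Lbp, Crp and Saa3 passed in neither comparison, and 0 were lower in each. The median log2 difference of all tested genes was -0.06 in the first comparison and -0.03 in the second. Saa2, Orm2 and Hamp were listed at 0 in all N134-RHAMMB tumours, so no fold is given for them. The filter fixed the direction of the 9 genes that reached 1 FPKM in metastases alone, so their values are description only. Fga, a fibrinogen chain, stood at 97.3, 145 and 101 FPKM in metastases and at 0.114 FPKM or less in the 6 subcutaneous tumours. Fgg and Fgb were higher by 6.50 and 5.44 on the log2 scale against N134-RHAMMB tumours. In N134-RHAMMB against N134 tumours 0 of the 10 genes that reached 1 FPKM outside metastases passed in limma, against 0.194% of all genes. At an unadjusted p under 0.05 there were 3, Saa3, Serpina3n and Lrg1, against 12.8% of all genes. Of 6 tested growth hormone and STAT5 genes that are no members, Serpina3k and Mup3 also reached 1 FPKM in metastases alone. Of the other 4, 3 rose and 0 fell in each comparison with metastases, against the same shares of all genes. They include Igf1, insulin-like growth factor 1, at 20.6, 20.9 and 18.0 FPKM in metastases, 3.01, 2.23 and 4.61 FPKM in the N134-RHAMMB tumours and 6.75, 7.94 and 6.05 FPKM in the N134 tumours. Serpina3k and Mup3 are liver genes with near-identical paralogs that make their values uncertain. They were higher by 8.01 and 6.15 on the log2 scale against N134-RHAMMB tumours, a direction that the filter had fixed. Between N134-RHAMMB and N134 tumours 0 of the 4 genes that reached 1 FPKM outside metastases passed in limma. Igf1 alone had an unadjusted p under 0.05 (-0.92, limma adjusted p = 0.132), against 12.8% of all genes. Most of these genes are hepatocyte genes, hepatocyte markers differed between the groups as given above, and the part of liver tissue in the libraries was not tested.

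**Figure D4:**
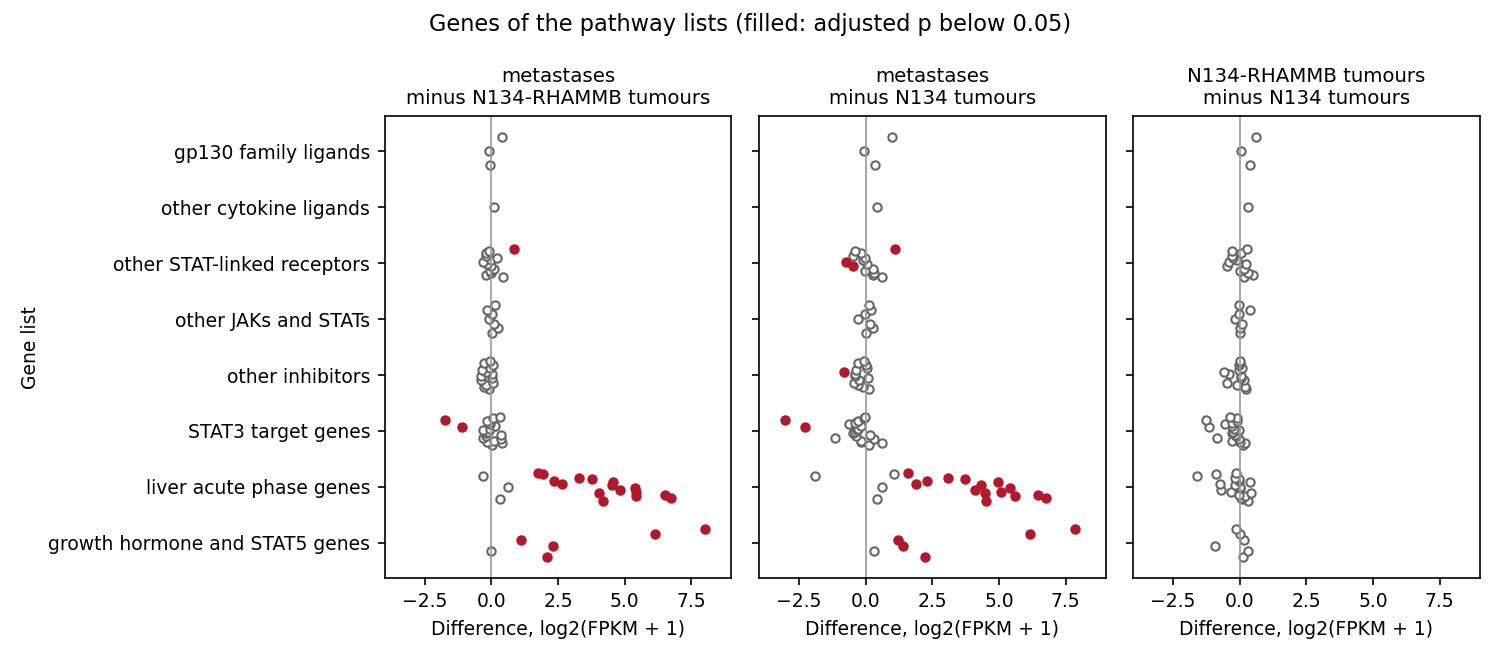
Differences in log2(FPKM + 1) of the tested genes of 8 lists around the pathway, 1 point per gene, in the 3 comparisons; filled points had an adjusted p below 0.05 in limma. Acute phase genes and growth hormone and STAT5 genes lie mostly to the right in both comparisons with metastases. Of these, 9 and 2 reached 1 FPKM in metastases alone, and Orm1, Fgl1 and Apcs also needed the metastases to pass the filter. Most genes of the other lists lie near 0 in all 3.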

How the data were processed

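The authors deposited 1 table of FPKM values for 22053 rows of protein-coding genes in 9 libraries, with a status word per value, per the file headers. Tools named in the submitters' processing notes are Cufflinks 2.1.1, STAR 2.5.2 and bcl2fastq 2.19, with the build GRCm38; kit and strand setting are not named there. FPKM divides by transcript length and library size, so it is a share, and abundant genes lower the values of the others.

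7 rows with a failed estimate and 102 rows repeating a symbol were dropped. Values were log2(FPKM + 1), a scale that understates changes of low genes. Groups were compared with limma 3.58.1 in R 4.3.3, in 1 model over all 9 libraries with an intensity trend, 2-sided, with Benjamini-Hochberg adjustment over 12854 genes and a threshold of 0.05. The script was tested on simulated data. An exact permutation test of 3 against 3 cannot go below 0.1 and was not used. Depth was estimated from the FPKM of single fragments in genes with 1 transcript of 2000 to 6000 nucleotides (GENCODE M21 lengths). Coordinates are the table's, with 1 added to the start. The members and lists were chosen with earlier results of these data known. Named list genes are among the 3 largest differences of their list, unless a reason is given. Figures were drawn in Python 3.11.15. Alternatives were other pseudocounts, filters, scalings, variance models, samples and a replicate block.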

Additional observations from a re-analysis of the deposited data

How the results depend on the processing

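Over 19 alternatives, 561 differences of members were recomputed. Of these 512 kept direction and side of the threshold, 15 lost and 11 gained a call and 23 changed sign; none of the 23 belonged to a called difference.

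In metastases against N134-RHAMMB tumours 1 member passed. With a pseudocount of 0.1, no filter, a mean of at least 5 FPKM, quantile normalization, only the 2 groups compared, or without N134-RHAMMB tumours 2 and 4 together, 0 passed. With median-of-ratios scaling, no intensity trend or library weights 2 passed, and with each library left out 0 to 2. In metastases against N134 tumours Lifr passed, and the count was 0 with the replicate block and 0 to 1 with each library left out. In N134-RHAMMB against N134 tumours it was 4 with library weights and 0 to 0 with each library left out. The cause was not tested, except that Cish was not tested at a mean of 5 FPKM.

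Over all genes, 843 passed in metastases against N134-RHAMMB tumours, and 347 at a mean of 5 FPKM (fewer genes tested), 1950 with library weights, 504 without N134-RHAMMB tumours 2 and 4, and 650 to 1137 with each library left out. In metastases against N134 tumours 1276 passed, 594 at a mean of 5 FPKM and 882 to 1571 with each library left out. In N134-RHAMMB against N134 tumours 25 passed, 15 at a mean of 5 FPKM, 2629 with library weights, 1 with the replicate block, 169 with only the 2 groups, 1 without N134-RHAMMB tumours 2 and 4, and 0 to 193 with each library left out (193 without metastasis 2).

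Signs changed as follows. In metastases against N134-RHAMMB tumours Jak1 was 0.05 with median-of-ratios scaling, 0.01 with quantile normalization, 0.05 with the replicate block and -0.10 to 0.04 with each library left out. Stat3 was 0.17 with library weights, 0.03 with the block and -0.30 to 0.11 with each library left out, Socs3 -0.47 to 0.24 and Il6ra -0.54 to 0.07. In metastases against N134 tumours, with each library left out, Il6ra was -0.12 to 0.49, Socs1 -0.50 to 0.06 and Socs3 -0.64 to 0.07. In N134-RHAMMB against N134 tumours Jak2 was 0.03 with library weights, 0.04 without N134-RHAMMB tumours 2 and 4 and -0.07 to 0.05 with each library left out, Il6st was -0.50 to 0.03, and Socs3 was 0.03 without N134-RHAMMB tumours 2 and 4.

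The labels do not say whether equal replicate numbers mark paired samples. Deviations from the group means correlated at r = -0.0027 to 0.1018 in 7 same-numbered pairs and at -0.1945 to 0.1497 in the other pairs. With 3 libraries a group these values cannot settle whether the samples were paired. With the replicate block 1 member, Socs2 (1.39, limma adjusted p = 0.0171), passed in metastases against N134-RHAMMB tumours, and Cish did not (adjusted p = 0.0891). Depth limits Socs1, with at most 9 fragments in metastasis 2, and no FPKM value carries its own counting error.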

Other observations

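Apart from Ttr, some genes better known from liver stood high in every group. Crp, which encodes C-reactive protein, stood at 92.9, 68.5 and 72.4 FPKM in metastases, at 56.9, 72.8 and 55.3 FPKM in the N134-RHAMMB tumours, and 56.9, 52.0 and 64.9 FPKM in the N134 tumours. Ghr, the growth hormone receptor, stood at 55.2, 84.7 and 72.4 FPKM in metastases, at 69.6, 65.8 and 75.3 FPKM in the N134-RHAMMB tumours, and 59.2, 54.8 and 54.2 FPKM in the N134 tumours. In libraries where Alb was at most 1.60 FPKM, both genes were at 52.0 FPKM or more. Crp and Ghr were chosen after their values were seen.

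Metastasis 2 also held the highest values of Il11 and Il22ra1, chosen likewise. Il11, a gp130 ligand, stood at 1.41 FPKM in metastasis 2 and at 0.168 and 0.0651 FPKM in metastases 1 and 3. Il22ra1, an interleukin-22 receptor chain that signals to STAT3, stood at 1.52 FPKM in metastasis 2 and at 0.408 and 0.475 FPKM in metastases 1 and 3. Both lay under the filter and were not tested.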
